A study of Mus musculus with 8 samples.

Results

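Tcf7, Lef1, Klf2, Foxo1, Il7r, Satb1, Bach2, Cd27 and Btg1 are 9 genes linked to the resting, naive and memory states of T cells. They were followed in 6 subsets of liver lymphocytes from mice with and without β-glucan (BG). The genes were taken by symbol, 9 of the 32285 genes listed, and none of them was used to choose cells. The subsets were set by marker UMIs (unique molecular identifiers, each standing for 1 captured RNA molecule) and held 12698 of the 48465 cells that passed the quality filter. They were naive CD4 T cells (339 cells), naive CD8 T cells (730 cells), effector T cells (1232 cells), NKT-like cells (8751 cells), ILC1-like cells (862 cells) and NK-like cells (784 cells). In BG-treated mice, Klf2 was called lower in effector T, NKT-like, ILC1-like and NK-like cells, and no other gene of the 9 passed the test in any subset. Only the call in NK-like cells held under every alternative run. Klf2 was also below control on average in naive T cells and in B cells. In the pairs of subsets compared, its response was not shown to differ. The median change of the 9 genes was small, and the naive T cells kept levels of Tcf7, Lef1, Il7r and Satb1 that the test could not separate from those of controls.

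All 8 mice were female C57BL/6J animals of 9 weeks with no other genetic change named. The 4 control mice (replicates 1 to 4) are labelled Control, and the 4 BG mice (replicates 5 to 8) received 1.2 mg of odetiglucan intravenously 48 hours before the liver was taken. Odetiglucan (Imprime PGG) is a soluble yeast β-glucan. CD45+ cells of the perfused liver were pooled with cells recovered on a density gradient from the CD45- fraction, so a mixed suspension and not a sorted T cell was sequenced, as 1 10x Genomics 3' library for each mouse.

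Control libraries held 39612380 to 46211839 UMIs and BG libraries 44184117 to 60654583 UMIs. BG replicate 5 stood apart before filtering, with 27873 barcodes, a median of 34 genes per barcode and 66.6% mitochondrial UMIs. After the filter (200 to 2500 genes and at most 30% mitochondrial UMIs), 4330 cells of it remained, against 4800 to 5780 in the other BG libraries and 6222 to 7790 in controls. Pairs of libraries shared 5 to 26 barcodes among the cells kept. Each mouse gave 24 to 67 naive CD4, 55 to 126 naive CD8, 121 to 228 effector, 630 to 1427 NKT-like, 77 to 227 ILC1-like and 61 to 143 NK-like cells. B cells (370 to 1850 per mouse) served as a comparator, since they carry Klf2, Foxo1, Bach2, Satb1 and Btg1 but little RNA of T cell genes. Markers that no gate had used fitted the names of the subsets. CPM are UMIs per 1e6 UMIs of the genes kept by the count filter in that subset, scaled by TMM, and not per 1e6 of all UMIs. In control replicate 1, for example, 156 Tcf7 UMIs among 227436 UMIs of naive CD4 cells became 830 CPM. Dapl1, an RNA of resting naive T cells, averaged 250.4 CPM in naive CD4 and 445 CPM in naive CD8 cells. It averaged 33.4 CPM in effector and 2.04 CPM in NKT-like cells. Gzma, which encodes a cytotoxic protease, averaged 7.62 and 7.98 CPM in the naive subsets against 9276 CPM in NK-like cells.

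A resting T cell keeps its state actively. The transcription factors TCF1 (gene Tcf7) and LEF1 hold the naive and memory programmes, and FOXO1, which enters the nucleus when growth factor signals are low, drives expression of Klf2 and of Il7r, the receptor for the survival cytokine IL-7. KLF2 restrains proliferation and turns on the receptors that let lymphocytes leave tissue for blood and lymph. SATB1 organises chromatin in T cells, BACH2 represses effector genes, CD27 is a co-stimulatory receptor lost from fully differentiated cells, and BTG1 promotes turnover of messenger RNA in resting lymphocytes. Signals through the T cell receptor or inflammatory cytokines lower several of these RNAs, Klf2 among them, within hours.

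In GRCm38 coordinates of the GENCODE annotation, Klf2 lies at chr8:72319033-72321656 on the plus strand and Cd27 at chr6:125232622-125237010 on the minus strand. These are the genes whose groups of mice separated completely in at least 1 of the 6 subsets, so the 250 bases before their RefSeq start sites (build GRCm38.p6) are shown, 5′ to 3′ on the strand of the gene. Capitals mark a match to CCACCC, the core of many KLF sites, or to ACAAAG, a core of TCF/LEF sites, on either strand. The Klf2 stretch spans chr8:72318812-72319061 and the Cd27 stretch chr6:125237028-125237277.
Klf2: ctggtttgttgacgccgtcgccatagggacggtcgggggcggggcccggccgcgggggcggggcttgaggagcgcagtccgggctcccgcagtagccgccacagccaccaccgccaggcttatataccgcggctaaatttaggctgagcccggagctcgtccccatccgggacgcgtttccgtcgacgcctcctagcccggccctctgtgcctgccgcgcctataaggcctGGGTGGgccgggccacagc
Cd27: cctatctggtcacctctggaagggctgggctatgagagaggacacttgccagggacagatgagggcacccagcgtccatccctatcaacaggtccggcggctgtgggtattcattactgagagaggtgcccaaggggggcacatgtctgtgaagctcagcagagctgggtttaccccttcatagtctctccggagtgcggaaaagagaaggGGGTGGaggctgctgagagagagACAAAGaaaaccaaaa

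Over the window from 250 bases before to 50 after the start, CCACCC was found on either strand for 3 of the 9 genes (Cd27, Klf2 and Lef1) and in 30.9% of 27025 mouse promoters of that length. ACAAAG was found for Cd27 alone (18.7% of all promoters), and TGTTTAC, a FOXO core, for Btg1 alone (3.55%). A pair of GAA half-sites as in interferon elements, GAAANNGAA, was found for none of the 9 (8.57%). Only the first RefSeq start of each gene was read, and a match describes letters in this window and not a bound site. The Klf2 window held 69.3% G and C with 32 CpG and that of Tcf7 76.3% with 45 CpG, while the window of Il7r held 45.7% with 1 CpG, against a median of 52.7% G and C over all promoters.

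Across subsets, 8 of the 9 genes (all but Cd27) had their highest mean CPM over all 8 mice in naive CD4 cells. The next highest mean CPM of these 8 genes was in naive CD8 cells. In control mice alone this order held for 6 genes, since Klf2 was highest in NK-like cells (1503 CPM, against 1409.8 CPM in naive CD4 cells) and Btg1 was next in ILC1-like cells (1524 CPM, against 1498 CPM in naive CD8 cells). These levels are descriptions, since the gates use genes that go with the members and each subset has its own total for CPM. The count filter kept 1106 genes in naive CD4, 2593 in naive CD8 and 9920 in NKT-like cells. Genes left out of the total raise the CPM of the rest, so the order of close subsets depends on this scale. For Klf2, naive CD4 cells were above naive CD8 cells in 5 of 8 mice in CPM, and their order was not established. Tcf7 averaged 745 ± 85.2 CPM (SD, n = 8 mice) in naive CD4, 516 ± 61.0 CPM in naive CD8 and 49.9 ± 7.70 CPM in NKT-like cells. The ranges of the naive subsets did not overlap in CPM, but they did per UMI of all genes. Control replicate 2 had 38 Tcf7 UMIs among 77664 in naive CD4 cells, and control replicate 4 had 138 among 254810 in naive CD8 cells. In CPM the naive CD4 mean was 14.9 times that of NKT-like cells, the steepest gradient of the 9 genes. The total in naive CD4 cells leaves out more genes, which raises this ratio. Below the naive subsets the order was effector (112 ± 31.3 CPM), NK-like (96.6 ± 25.2 CPM), ILC1-like (57.7 ± 22.1 CPM) and NKT-like, and each neighbouring pair there overlapped between mice.

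**Figure D1:**
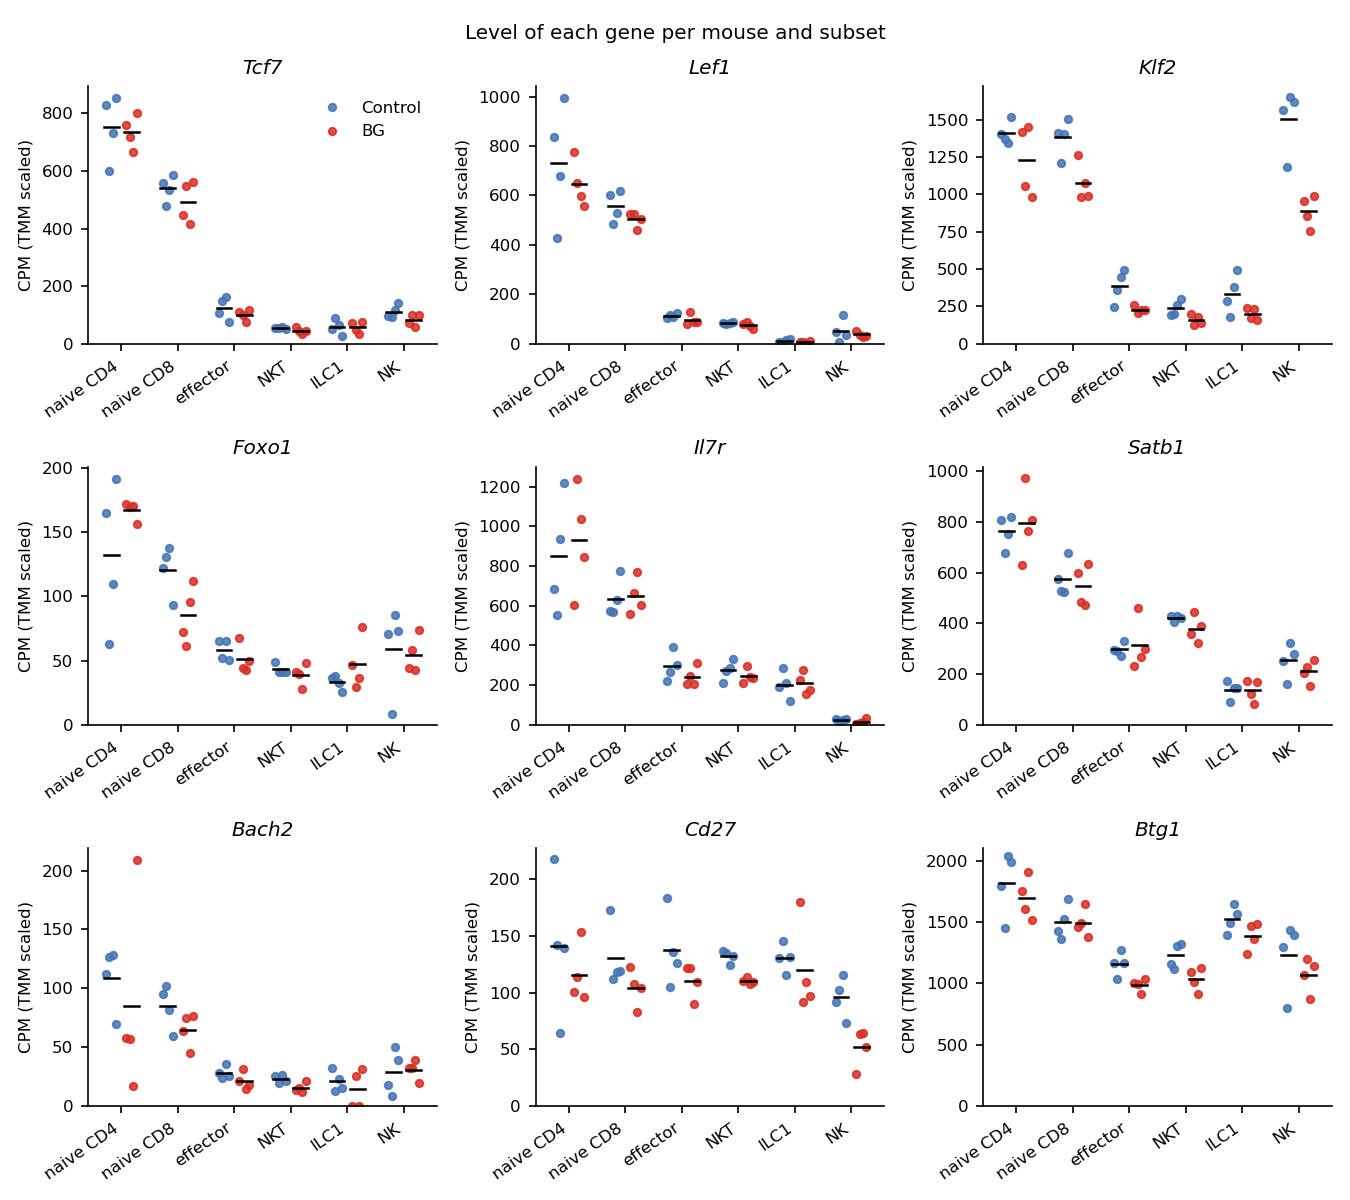
Level of each of the 9 genes (y axis, CPM scaled by TMM, each panel with its own scale from 0) in each subset (x axis). The total for CPM is set within each subset. Every point is 1 mouse (blue control, red BG) and black bars are group means; Tcf7 and Lef1 fall steeply outside the naive subsets, Klf2 is high again in NK-like cells, and Cd27 and Btg1 are nearly flat.

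Lef1 followed Tcf7 in the T cell subsets and fell lowest in ILC1-like cells. Its mean was 689 ± 176 CPM in naive CD4, 532 ± 54.4 CPM in naive CD8, 105 ± 17.7 CPM in effector and 79.1 ± 9.89 CPM in NKT-like cells. NK-like cells averaged 44.7 ± 31.6 CPM and ILC1-like cells 9.75 ± 5.18 CPM, and NK-like cells were above ILC1-like cells of the same mouse in 8 of 8 mice. The ILC1-like value rests on 21 Lef1 UMIs over all mice.

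Klf2 divided the innate subsets. Over control and BG mice together it averaged 1318 ± 192 CPM in naive CD4, 1231 ± 200.3 CPM in naive CD8 and 1197 ± 364 CPM in NK-like cells. The ranges of these 3 overlapped. The spread in NK-like cells includes the difference between the groups, with 1503 ± 218 CPM (n = 4) in control and 890 ± 108 CPM in BG mice. Effector T cells followed with 307 ± 111 CPM, ILC1-like cells with 268 ± 117 CPM and NKT-like cells with 199 ± 56.6 CPM, again with overlapping ranges. NK-like cells, which circulate, had 4.47 times the Klf2 mean of ILC1-like cells, which reside in the liver, and were higher in 8 of 8 mice. S1pr1, the exit receptor that KLF2 is known to turn on, was named after its values had been seen. It averaged 378 ± 139 CPM (n = 4) in naive CD4 and 260.2 ± 32.3 CPM in naive CD8 cells of control mice, and 9.54 ± 0.906 CPM in their NKT-like cells. S1pr1 levels in NK-like and ILC1-like cells are not given here, so no pattern shared with Klf2 was shown for them.

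Il7r showed the opposite order in the innate subsets. Its mean was 889 ± 265 CPM in naive CD4 and 641 ± 86.7 CPM in naive CD8 cells, and 269 ± 64.6, 259.9 ± 42.4 and 205 ± 57.0 CPM in effector, NKT-like and ILC1-like cells. NK-like cells held 20.01 ± 10.1 CPM, from 39 UMIs in all, and were below ILC1-like cells in 8 of 8 mice with no overlap of the ranges. Foxo1 ran from 149.8 ± 42.2 CPM in naive CD4 and 103 ± 27.4 CPM in naive CD8 cells to 40.1 ± 16.0 CPM in ILC1-like cells, and the 4 subsets outside the naive ones overlapped.

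Satb1 stayed high in NKT-like cells. It averaged 779.5 ± 103 CPM in naive CD4, 562 ± 72.5 CPM in naive CD8 and 399.6 ± 42.2 CPM in NKT-like cells, above effector (306 ± 68.7 CPM), NK-like (232 ± 57.6 CPM) and ILC1-like cells (137 ± 36.9 CPM). Bach2 averaged 97.0 ± 59.6 CPM in naive CD4 and 74.6 ± 18.7 CPM in naive CD8 cells and 17.4 to 29.7 CPM elsewhere, with 0 UMIs in the ILC1-like cells of 2 BG mice. In B cells Bach2 averaged 171 ± 22.3 CPM.

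Cd27 and Btg1 varied least between subsets. Cd27 means lay between 117 and 128 CPM in 5 subsets, whose order depends on the total used for CPM. The Cd27 mean was 73.8 ± 28.5 CPM in NK-like cells, which were below ILC1-like cells in 8 of 8 mice. Btg1 averaged 1757 ± 218 CPM in naive CD4 and 1074 ± 118 CPM in effector cells, its lowest subset. In CPM its naive CD4 mean was 1.55 times that of NKT-like cells, a ratio that the naive CD4 total raises.

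Shares of cells with a UMI were read for Tcf7 and Il7r as well. Cells with fewer than 1500 UMIs were left out of these shares, and the rest were thinned to 1500 UMIs. In control mice this used 4680 of 4771 NKT-like, 309 of 367 NK-like and 4185 of 6081 B cells. A Tcf7 UMI was then found in 57.3 ± 7.22% (SD, n = 4) of control naive CD4 cells, 47.1 ± 6.59% of naive CD8 cells and 6.96 ± 0.373% of NKT-like cells, against 0.382 ± 0.294% of B cells, which should lack it. Il7r was found in 26.4 ± 2.68% of NKT-like, 20.3 ± 9.21% of ILC1-like and 3.07 ± 1.89% of NK-like cells, against 0.544 ± 0.376% of B cells. Without thinning the Tcf7 shares were 72.4, 70.1 and 13.4%, and 0.544% in B cells. Median UMIs per cell were 2438.5 to 3332 in control NKT-like cells and 1513 to 2231 in control B cells.

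**Figure D2:**
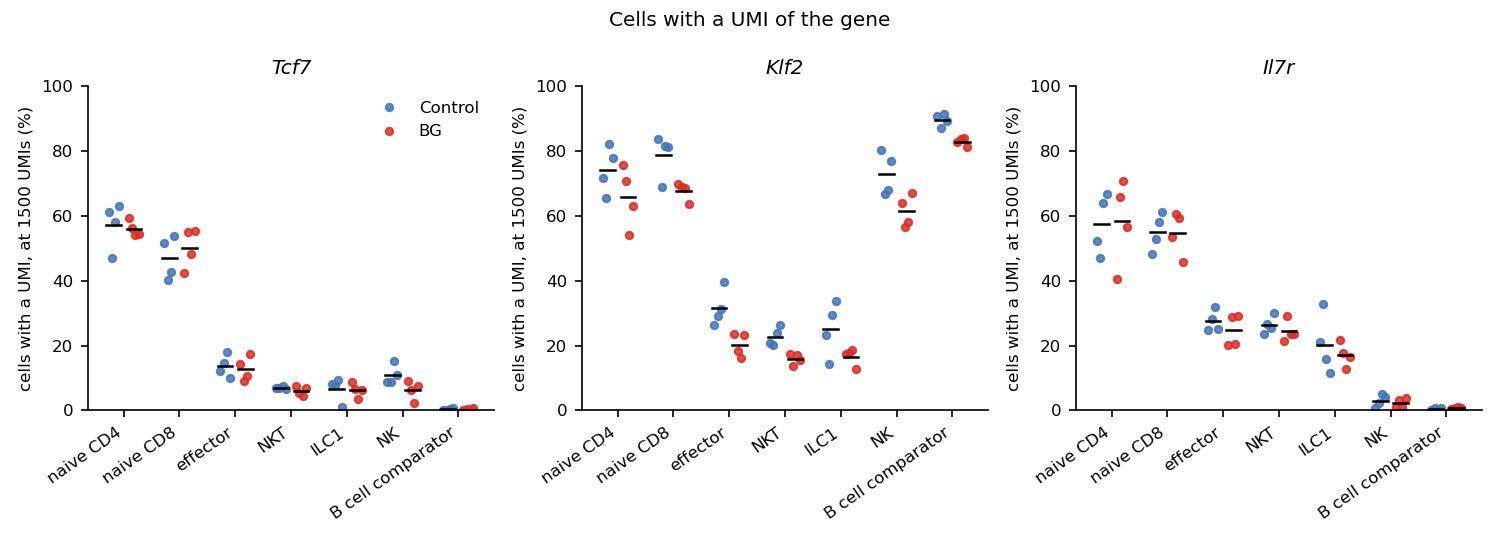
Percent of cells with at least 1 UMI of Tcf7, Klf2 or Il7r (y axis), by subset (x axis), 1 point per mouse (blue control, red BG) with group means as bars. Each cell with at least 1500 UMIs was thinned to 1500 UMIs, and cells with fewer are left out. Among the 6 subsets the naive ones are highest for Tcf7 and Il7r and lie near NK-like cells for Klf2, while B cells are above all 6 for Klf2 and near 0 for Tcf7 and Il7r.

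The gene whose pattern was most like that of Tcf7 was Emb, which encodes the surface glycoprotein embigin. Over the 48 values of 6 subsets in 8 mice and among 1043 genes kept in every subset, its log2 CPM had a Pearson r of 0.94 with Tcf7. Rps3a1 (r = 0.93), Stk38 (0.92), Rack1 (0.92) and Rpl7 (0.92) followed, of which Rps3a1 and Rpl7 encode ribosomal proteins. Values from 1 mouse share its library, and the r values are descriptions. Lef1, Il7r, Foxo1 and Bach2 were not kept in every subset and so have no r here. Among the members that were kept, Satb1 had an r of 0.77 with Tcf7, Klf2 0.75, Btg1 0.62 and Cd27 0.13. Counting Tcf7 itself, 122 genes had a higher r than Satb1 and 127 a higher r than Klf2.

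The effect of BG was tested by summing UMIs over the cells of each mouse and subset (edgeR quasi-likelihood test, 4 control and 4 BG mice, Benjamini-Hochberg adjustment over all genes tested in the subset). Calls needed an adjusted p under 0.05 and a log2 change above 0.5 in size. Of the 54 pairs of a member and a subset, 47 had enough counts to be tested. Lef1 in ILC1-like and NK-like cells, Bach2 in naive CD4, ILC1-like and NK-like cells, Foxo1 in ILC1-like cells and Il7r in NK-like cells did not. Of the 47, 40 had a fold change below 0, 4 were called lower and 0 higher, and all 4 calls were Klf2. At an unadjusted p under 0.05, edgeR placed no member higher in any subset, and 2 lower in naive CD8, 3 in effector, 5 in NKT-like, 1 in ILC1-like, 2 in NK-like cells and none in naive CD4 cells. Over all genes the same limit gave 101 of 2593 lower in naive CD8, 299 of 5109 in effector, 680 of 9920 in NKT-like, 130 of 3610 in ILC1-like, 215 of 3373 in NK-like and 25 of 1106 in naive CD4 cells. DESeq2 called Klf2 in effector and NK-like cells and no member in the other subsets.

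By subset, none of 8 members tested in naive CD4 cells and none of 9 in naive CD8 cells was called. Over all genes 0.542% were called higher and 0% lower in naive CD4, and 0.54% higher and 0.0771% lower in naive CD8 cells. In effector cells 1 of 9 members was called lower and none higher, where 1.92% of all genes were called higher and 0.509% lower. In NKT-like cells 1 of 9 was called lower and none higher, against 2.37% higher and 0.373% lower of all genes. In ILC1-like cells it was 1 of 6 lower and none higher, against 0.997% higher and 0.139% lower, and in NK-like cells 1 of 6 lower and none higher, against 1.42% higher and 0.474% lower. In B cells none of 6 was called, against 1.26% higher and 0.0952% lower. With library sizes alone in place of TMM, the calls over all genes went from 36 higher and 5 lower to 26 and 8 in ILC1-like cells and from 48 and 16 to 36 and 20 in NK-like cells, and Klf2 stayed called lower in both.

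**Figure D3:**
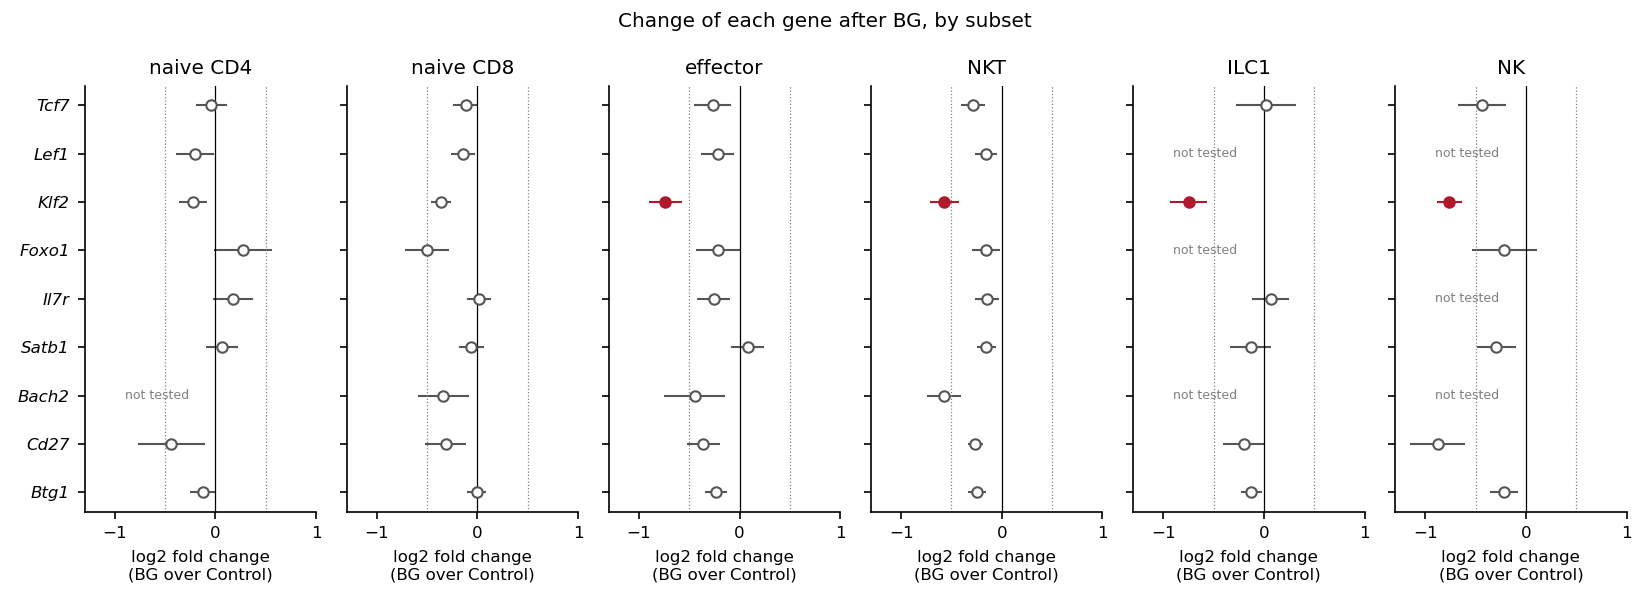
Log2 fold change of BG over control (x axis) of each gene (y axis) in each subset, with bars of 1 standard error from edgeR; filled red points passed both thresholds and dotted lines mark a log2 change of 0.5. Klf2 is the called gene in effector, NKT-like, ILC1-like and NK-like cells, and most other points lie at or left of 0 with bars short of the dotted line.

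The median log2 fold change of the members tested was -0.08 in naive CD4, -0.15 in naive CD8, -0.26 in effector, -0.25 in NKT-like, -0.13 in ILC1-like and -0.37 in NK-like cells. Over all genes tested in the same subsets the medians lay between -0.02 and -0.0003. In B cells the members' median was 0.01. Members of one subset share their libraries and are not replicates.

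Klf2 fell in NK-like cells of every BG mouse. Control mice had 1563, 1180.3, 1649 and 1618 CPM and BG mice 958, 858, 753 and 992 CPM, in the order of their replicates. All 4 BG values lay below the lowest control, as they did for 3.35% of the genes tested in NK-like cells. The log2 fold change was -0.76 ± 0.13 (SE) with an edgeR adjusted p of 0.000654, and the call held under every alternative run, with adjusted p up to 0.0464. Among the thinned NK-like cells, 73.0 ± 6.73% in control and 61.4 ± 4.90% in BG mice held a Klf2 UMI.

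In effector T cells, control mice had 248, 359, 444 and 494 CPM of Klf2 and BG mice 257, 203, 226 and 228 CPM. Control replicate 1 lay inside the BG range and the other 3 controls above it. This was a log2 fold change of -0.74 ± 0.16, with an edgeR adjusted p of 0.00870. The call was lost without control replicate 4 (-0.60, edgeR adjusted p = 0.0502), without cells in cycle (-0.53, 0.250) and with mitochondrial UMIs limited to 10% (-0.17, 0.960). Of the arms of this subset, the CD4 arm alone gave -0.76 (edgeR adjusted p = 0.0178) and the CD8 arm alone -0.47 (0.491), and the difference between arms was not tested.

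The effector cells of BG replicate 5 also carried B cell RNA, whose part in the values was not tested. A list of 8 B cell genes summed to 6565 CPM there, against 155 to 340.5 CPM in the effector cells of the other 7 mice. Without BG replicate 5, Klf2 gave -0.79 with an edgeR adjusted p of 0.0114.

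In ILC1-like cells, the controls had 283, 177, 379.9 and 496 CPM of Klf2 and the BG mice 240.3, 171, 235 and 159.8 CPM. Control replicate 2 lay within the BG range, and the other controls above it. Klf2 had a log2 fold change of -0.75 ± 0.18 with an edgeR adjusted p of 0.0192. It passed no longer when control replicate 3, control replicate 4, BG replicate 6 or BG replicate 8 was left out, with log2 fold changes of -0.68, -0.54, -0.68 and -0.64 and edgeR adjusted p of 0.0872, 0.243, 0.124 and 0.102. It was also lost without cells in cycle (-0.63, edgeR adjusted p = 0.295) and under DESeq2 (-0.74, 0.215).

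NKT-like cells, the largest subset, had 195, 197, 260.4 and 297 CPM of Klf2 in control mice and 199, 127, 178 and 141 CPM in BG mice. BG replicate 5 lay just above control replicates 1 and 2, and the other 3 BG mice lay below all controls. The edgeR fit gave a log2 fold change of -0.57 ± 0.14 with an adjusted p of 0.0329. Leaving out control replicate 3 ended the call (-0.52, edgeR adjusted p = 0.123), as did leaving out control replicate 4 (-0.44, 0.124), BG replicate 6 (-0.47, 0.0933) and BG replicate 8 (-0.52, 0.0655). So did DESeq2 (-0.56, adjusted p = 0.140), leaving out cells in cycle (-0.49, edgeR adjusted p = 0.0872) and mitochondrial UMIs of at most 10% (-0.52, 0.0850). Thinned cells with a Klf2 UMI made up 22.7 ± 2.85% in control and 16.0 ± 1.66% in BG mice.

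In naive CD8 cells, Klf2 stood at 1411, 1212, 1407 and 1502 CPM in controls and 1263, 985, 1074 and 990.2 CPM in BG mice. BG replicate 5 overlapped control replicate 2. The log2 fold change of -0.36 ± 0.10 had an edgeR adjusted p of 0.105 and was not called. In naive CD4 cells the controls held 1404, 1373, 1346 and 1516 CPM and the BG mice 1420.4, 1057, 1448 and 983 CPM, with BG replicates 5 and 7 inside the control range (-0.22 ± 0.14, edgeR adjusted p = 0.845).

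B cells of the same livers had 2380.3, 2199.9, 2481 and 2429.7 CPM of Klf2 in control and 2049, 1602, 1796 and 1512 CPM in BG mice. All BG values lay below all controls, as for 2.46% of genes tested in B cells. The log2 fold change was -0.45 ± 0.10 with an edgeR adjusted p of 0.0265, short of the fold limit and so not called. Klf2 was therefore below control on average in all 7 cell groups examined.

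**Figure D4:**
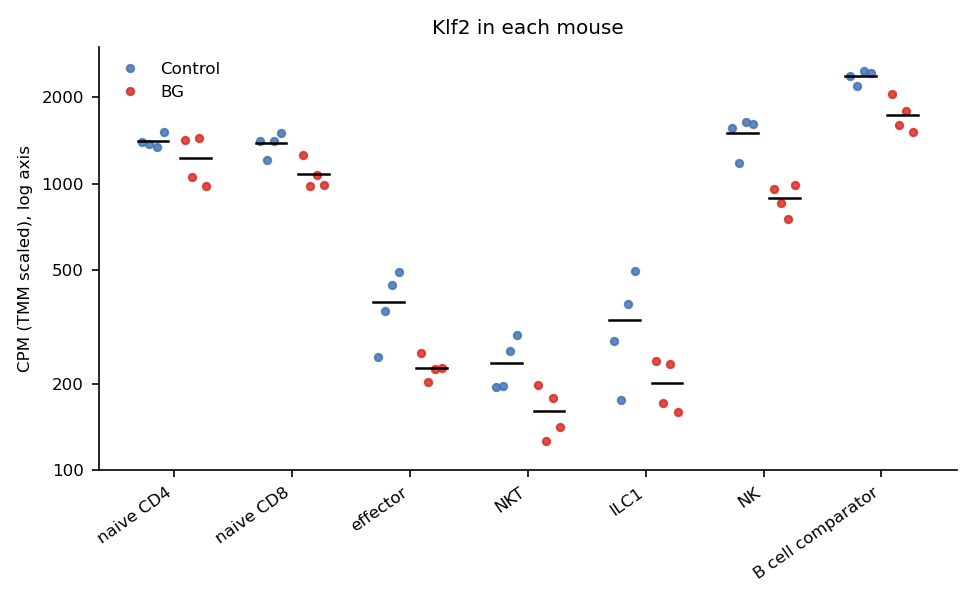
Klf2 level (y axis, CPM scaled by TMM, log axis) in each mouse (points, blue control and red BG) by subset and in B cells (x axis), with group means as bars. BG mice lie below all controls in NK-like cells and B cells and overlap with controls in the other 5 groups.

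B cells are rich in Klf2, and some of their RNA was found in the other subsets. Scaled by 4 B cell genes that no T, NK or ILC1 gate used, that RNA would carry 24.7 to 46.3 CPM of Klf2 in control and 10.5 to 13.7 CPM in BG NKT-like cells. Less that amount, Klf2 was 204 ± 51.0 CPM (n = 4) in control and 149 ± 34.1 CPM in BG NKT-like cells. In NK-like cells the amount was at most 41.5 CPM and Klf2 less it 1478 ± 229 CPM in control and 880.0 ± 104 CPM in BG mice. In ILC1-like cells Klf2 less it was 300.1 ± 133 CPM in control and 186 ± 44.1 CPM in BG mice. In effector cells it was 359.6 ± 108 CPM in control mice and 192, 219 and 215 CPM in BG replicates 6, 7 and 8. In BG replicate 5 the scaled amount (435 CPM) exceeded the 257 CPM measured, so the estimate failed for that mouse.

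Cd27 was the other member whose groups separated. In NK-like cells control mice had 91.8, 103, 116 and 72.8 CPM and BG mice 28.1, 63.6, 64.0 and 51.9 CPM, with all BG values below all controls, as for 3.35% of genes tested there. The log2 fold change was -0.88 ± 0.28, the largest in size among the 47, but the edgeR adjusted p was 0.0963, so it was not called, and it rests on 130 UMIs. In NKT-like cells control mice had 137, 135, 124 and 133 CPM and BG mice 110.4, 114, 107 and 109 CPM. These groups did not overlap either, as for 3.87% of genes tested in NKT-like cells, and the log2 fold change was -0.26 ± 0.08 (edgeR adjusted p = 0.0721). In the other 4 subsets Cd27 overlapped between groups, with log2 fold changes of -0.44 (naive CD4), -0.32 (naive CD8), -0.36 (effector) and -0.20 (ILC1-like) and edgeR adjusted p of 0.892, 0.714, 0.315 and 0.868.

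The factors of the naive programme differed little. Tcf7 in NKT-like cells had 53.9, 55.2, 56.9 and 51.5 CPM in controls and 56.9, 44.9, 34.9 and 45.0 CPM in BG mice. In BG replicates 6, 7 and 8 it lay below all controls, and in BG replicate 5 at the top of the control range. Its log2 fold change of -0.29 ± 0.12 had an edgeR adjusted p of 0.221. Elsewhere Tcf7 had log2 fold changes of -0.04 (naive CD4), -0.12 (naive CD8), -0.27 (effector), 0.02 (ILC1-like) and -0.44 (NK-like), with edgeR adjusted p of 0.374 and above.

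Lef1 had log2 fold changes of -0.20 ± 0.19 in naive CD4, -0.15 ± 0.12 in naive CD8, -0.22 ± 0.16 in effector and -0.16 ± 0.11 in NKT-like cells, all with overlapping groups and edgeR adjusted p of 0.529 and above. In naive CD4 cells, where it is highest, control mice had 835, 426, 678 and 993 CPM and BG mice 775, 651, 596 and 557 CPM. The controls spanned all the BG values.

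Foxo1 and its known target Il7r were not called in any subset tested. Foxo1 was 122, 131, 137 and 93.3 CPM in control and 72.4, 61.0, 95.9 and 112 CPM in BG naive CD8 cells, with BG replicates 7 and 8 above the lowest control. A log2 fold change of -0.50 ± 0.22 had an edgeR adjusted p of 0.497. In naive CD4 cells it was 0.27 ± 0.29 (edgeR adjusted p = 0.962). Il7r gave 0.17 ± 0.20 in naive CD4 and 0.02 ± 0.12 in naive CD8 cells, and -0.26 ± 0.16, -0.15 ± 0.12 and 0.07 ± 0.19 in effector, NKT-like and ILC1-like cells, with edgeR adjusted p of 0.506 and above. BG mice therefore kept 603 to 1237 CPM of Il7r in naive CD4 cells, beside 552 to 1219.6 CPM in controls.

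Bach2 came close in NKT-like cells only. Control mice had 25.6, 19.0, 26.0 and 21.1 CPM and BG mice 13.4, 15.3, 11.7 and 21.1 CPM. BG replicate 8 was level with control replicate 4 and the other BG mice lay below all controls. The log2 fold change of -0.57 ± 0.17 had an edgeR adjusted p of 0.0696, and it passed without BG replicate 8 (-0.78, edgeR adjusted p = 0.00851). In naive CD8 and effector cells Bach2 gave -0.34 ± 0.25 and -0.45 ± 0.31 (edgeR adjusted p = 0.767 and 0.557).

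Satb1 and Btg1 were not called in any subset. Satb1 had log2 fold changes between -0.30 (NK-like) and 0.08 (effector). In NKT-like cells control mice had 429, 406, 428 and 422 CPM and BG mice 357, 446, 321 and 388 CPM, with BG replicate 6 above all controls (-0.15 ± 0.09, edgeR adjusted p = 0.438). Btg1 had log2 fold changes between -0.25 (NKT-like) and -0.01 (naive CD8). Its NKT-like values were 1158, 1120.2, 1307 and 1325 CPM in control and 1092, 1012, 913 and 1121 CPM in BG mice, where BG replicate 8 and control replicate 2 were nearly equal (edgeR adjusted p = 0.164).

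Whether the response differed between subsets was tested as an interaction with the mouse as a block. NKT-like against naive CD4 cells, naive CD8 against naive CD4 cells and ILC1-like against NK-like cells were compared. No member differed at an adjusted p under 0.05 in any of the 3, and of all genes 0.0855%, 0% and 0% did. The response of Klf2 differed by -0.35 ± 0.17 on the log2 scale between NKT-like and naive CD4 cells (edgeR adjusted p = 1) and by 0.06 ± 0.19 between ILC1-like and NK-like cells (edgeR adjusted p = 0.974). The Klf2 call in NKT-like cells and its absence in naive CD4 cells was therefore not shown to be a difference between them. Effector, ILC1-like and NK-like cells were not compared with a naive subset, nor any called subset with naive CD8 cells. Other members with an unadjusted p under 0.05 were Foxo1 in naive CD8 against naive CD4 cells (-0.83 ± 0.37, adjusted p = 0.999) and Cd27 in ILC1-like against NK-like cells (0.70 ± 0.34, adjusted p = 0.659).

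Other genes of the resting state were taken from a list of 38 (homing receptors, further KLF and FOXO factors, anti-proliferative genes). In NK-like cells 3 of 21 tested were called lower and none higher. These were Btg2, an anti-proliferative relative of Btg1 (936 ± 142 CPM in control and 599 ± 66.9 CPM in BG mice, log2 fold change -0.65, edgeR adjusted p = 0.00468), Cdkn1b, which encodes the cell cycle inhibitor p27 (165 ± 23.1 and 83.2 ± 29.5 CPM, -0.90, 0.0224), and Klf6, a relative of Klf2 (783 ± 180.1 and 533 ± 90.8 CPM, -0.57, 0.0369). None of 27 to 35 tested in the naive CD4, naive CD8, effector and NKT-like subsets and none of 20 in ILC1-like cells was called in either direction by edgeR. At an unadjusted p under 0.05 there were 2 higher and 9 lower in effector and 3 higher and 9 lower in NKT-like cells. S1pr1 had log2 fold changes of -0.58 in naive CD4, -0.44 in naive CD8 and -0.66 in NKT-like cells with edgeR adjusted p of 0.554, 0.294 and 0.0913, and 0.23 in effector cells (0.820). The median of the list in NK-like cells was -0.29, against -0.01 for all genes tested there.

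Of 38 genes of activation and effector states, several rose in the same subsets. In NKT-like cells 4 of 35 tested were called higher and none lower. They were Cdk6, a cell cycle kinase (12.4 ± 1.69 CPM in control and 22.9 ± 1.93 CPM in BG mice, log2 fold change 0.90, edgeR adjusted p = 0.000621), Myc, a driver of growth (0.70, 0.00164), Nme1, a nucleotide kinase and known MYC target (0.55, 0.0163), and Gzmb, the protease granzyme B (0.56, 0.0459). ILC1-like cells had 2 of 25 called higher, Gzmb (1272 ± 174 to 2022 ± 445 CPM, 0.68, edgeR adjusted p = 0.000708) and Nme1 (0.64, 0.0167). NK-like cells had Gzmb alone (0.79, edgeR adjusted p = 0.000690) of 25, and effector cells Nme1 alone (0.55, 0.0261) of 24. None of 8 in naive CD4 and none of 11 in naive CD8 cells was called by edgeR (2 higher in each at an unadjusted p under 0.05), and none was called lower in any subset, where up to 4 (in NKT-like cells) had an unadjusted p under 0.05.

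In B cells, 1 of 32 resting-state genes (Slfn2, higher) and 5 of 28 activation genes were called higher. Of those 5, Gzmb, Gzma, Nkg7 and Ccl5 are RNAs of cytotoxic lymphocytes, and Gzmb went from 4.71 ± 3.89 CPM in control to 25.5 ± 8.80 CPM in BG B cells. Where these RNAs in B cells came from was not tested. The other, Ccnd3, encodes a cyclin (82.7 ± 11.8 and 117 ± 9.41 CPM).

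Other states moved with Klf2, and their part in its change was not tested. Their part in the lower Btg2, Cdkn1b and Klf6 of NK-like cells was not tested either. A list of 12 immediate early genes, which stress and cell dissociation induce (Fos, Jun, Egr1 and others), was drawn up after the first results. It summed to 8892 to 10854 CPM in control and 6063 to 7414 CPM in BG NK-like cells, with 5 of 12 tested genes called lower. In NKT-like cells the sums were 7702 to 8526 and 5724 to 6795 CPM (5 of 12), in effector cells 6880.5 to 8813 and 5122 to 5893 CPM (5 of 11), and in ILC1-like cells 9141 to 10260.2 and 6985 to 8475 CPM (2 of 10). In B cells the same list gave 9291 to 9696 and 6391 to 7637 CPM (4 of 12), again without overlap. The groups overlapped in the naive subsets, at 5744 to 7180 and 4497 to 5844 CPM in naive CD4 and 5557 to 6062 and 4863 to 6001 CPM in naive CD8 cells, with none called.

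**Figure D5:**
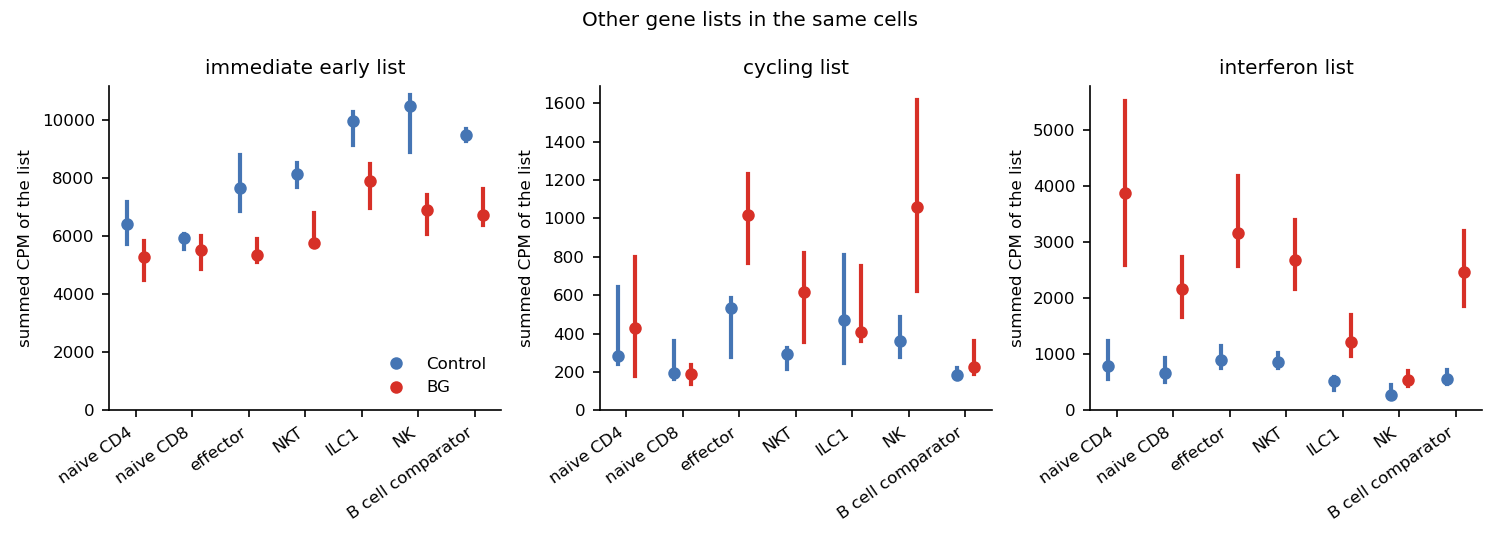
Summed CPM (y axis) of the immediate early, cycling and interferon gene lists in each subset and in B cells (x axis); points are medians and bars the lowest to highest of 4 mice (blue control, red BG). The immediate early sums of the groups separate in effector, NKT-like, ILC1-like and NK-like cells and in B cells, and the cycling sums in effector, NKT-like and NK-like cells.

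Cells in cycle were also more frequent, by a mark that did not allow for UMIs per cell. Median UMIs per cell were 2438.5 to 3332 in control and 2710 to 3873 in BG NKT-like cells, and the part of this depth was not tested. With at least 2 UMIs over 8 cycling genes as the mark, 10.6 to 18.4% of NK-like cells were in cycle in control and 24.6 to 40.2% in BG mice. The ranges were 11.9 to 18.6% and 21.6 to 38.1% in NKT-like, 12.7 to 23.8% and 27.5 to 40.9% in effector, and 10.3 to 14.6% and 15.6 to 27.7% in ILC1-like cells. In the naive subsets they overlapped, at 2.94 to 14.9% and 8.89 to 20.8% in CD4 and 6.74 to 9.78% and 3.92 to 15.6% in CD8 cells. Of the cycling genes tested, 4 of 5 were called higher in NK-like, 4 of 8 in NKT-like and 5 of 7 in effector cells, and none of 3 in ILC1-like cells. In ILC1-like cells the summed CPM of the cycling genes overlapped, with a median of 472 CPM in control and 411 CPM in BG mice. The median mitochondrial share of UMIs was 16.3% in control and 16.6% in BG NKT-like cells and 17.2 and 16.4% in NK-like cells. It was 16.3 and 17.9% in ILC1-like, 15.9 and 16.7% in effector, 17.4 and 20.0% in naive CD4, 16.9 and 17.9% in naive CD8 and 18.2 and 19.8% in B cells, and its part in the results was not tested beyond the fits limited to 10%.

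Interferon genes, from a list of 10, were called higher in subsets with and without a Klf2 call. Their sum in naive CD8 cells was 505 to 936 CPM in control and 1664 to 2738 CPM in BG mice (6 of 6 tested called higher). It was 558 to 1247 and 2596 to 5524 CPM in naive CD4 cells (2 of 3) and 753 to 1025 and 2169 to 3401 CPM in NKT-like cells (10 of 10). In NK-like cells, where Klf2 and Cd27 separated, the sums overlapped, at 224 to 462 and 439.6 to 701 CPM (1 of 3).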

How the data were processed

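The authors aligned 10x Genomics 3' v3.1 reads to mm10 with Cell Ranger, introns included (version 6.1.2 per the file headers), and deposited raw UMI counts for 32285 genes and 127557 barcodes in 8 libraries, 1 per mouse, with no normalization. The annotation release is not given in the sources used here. Cells with 200 to 2500 genes and at most 30% mitochondrial UMIs were kept (48465), as in the study's methods. No doublet caller was run, but a cell of a T, NK or ILC1 gate could hold at most 1 UMI over B cell, 1 over myeloid and 1 over endothelial markers. Gates were UMI thresholds on markers that include none of the 9 genes (for example Klrb1c or Zbtb16 for NKT-like cells; 1 gate marker is not reported here), and no cell was in more than 1 gate.

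UMI counts were summed per mouse and subset (at least 20 cells) and tested with edgeR 4.0.16 (filterByExpr, TMM, glmQLFTest, R 4.3.3), called at adjusted p under 0.05 and log2 fold change beyond 0.5. The interactions had the mouse as a block. CPM are scaled by TMM within a subset, with the UMIs of the genes kept by filterByExpr in that subset as the total. Subsets therefore do not share a total, and levels per UMI of all genes were not tabulated. For thinned shares of cells, each cell with at least 1500 UMIs was thinned to 1500 UMIs, and cells with fewer were left out. The script was tested on simulated counts. Alternatives were other size factors, no filter, DESeq2 1.42.0, each mouse left out, other gates and cell filters, and cells in cycle left out. The members and gene lists were chosen with earlier results of these data known, and the immediate early list and the 4-gene B cell list after the first results here. All 9 genes are named in every subset. From the lists, up to 4 called genes per subset with the smallest adjusted p are named, and the 5 genes most like Tcf7. The labels give the volume of the BG injection as mL and the methods as µL, and it is not used. Mice are separate animals, and p-values measure the spread between them. Thinned shares and sums carry counting error that no interval here adds to.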

Additional observations from a re-analysis of the deposited data

Results flagged for a closer look

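In groups of 4 mice, a value was picked out where its gap to the nearest of the others exceeded Dixon's 95% limit. This was so in 4 of 94 groups, where chance alone gives about 1 in 20. Foxo1 in naive CD4 cells of BG replicate 8 was 156.6 CPM, below 169.9 to 172.2 CPM in the other BG mice, a narrow range for a gene with few UMIs in these cells. Cd27 in naive CD8 cells of control replicate 1 was 172.5 CPM, above 111.5 to 118.8 CPM in the other controls. Lef1 in effector cells of BG replicate 6 was 128.3 CPM, above 81.62 to 88.84 CPM in the other BG mice. Foxo1 in NKT-like cells of control replicate 1 was 48.77 CPM, above 41.05 to 41.46 CPM in the other controls. None of these gene and subset pairs was called.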

How the results depend on the processing

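No paired analysis was possible because replicates 1 to 4 are control mice and 5 to 8 BG mice, so no number is shared between the groups. The count of members called lower was 0 in naive CD4 and naive CD8 cells under every alternative run, and no member was called higher in any. In NK-like cells it was 1 in every alternative that could be fitted. In effector cells it became 0 with the CD8 arm only, with mitochondrial UMIs of at most 10% and without cells in cycle, in NKT-like cells 0 under DESeq2, with at most 10% and without cells in cycle and 2 (Bach2 added) without a filter on low counts and with the stricter gate, and in ILC1-like cells 0 under DESeq2 and without cells in cycle. In B cells it became 1 with no fold limit and with library sizes alone. Leaving out 1 mouse gave 0 to 1 in each of effector, NKT-like and ILC1-like cells and B cells. These alternatives hold fewer cells, fewer mice or another model, and the cause was not tested. Klf2 was below 0 in every alternative run in all 6 subsets and B cells.

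Changes of sign were found for members never called in the subset. With library sizes alone these were Il7r in naive CD8 (-0.029), Tcf7 in ILC1-like (-0.022) and Foxo1 in B cells (-0.0024, and -0.0064 without a filter). The stricter gate gave Il7r -0.15, Satb1 0.10 and Cd27 0.029 in naive CD8 and Il7r -0.046 in ILC1-like cells, and the looser gate Foxo1 -0.083 in naive CD4 and Btg1 0.011 in naive CD8 cells. Up to 6000 genes per cell gave Tcf7 -0.013 and Il7r -0.018 in ILC1-like cells. In effector cells the CD4 arm gave Tcf7 0.018 and Satb1 -0.13, the CD8 arm Lef1 0.14, and at most 10% mitochondrial UMIs Il7r 0.27. Without cells in cycle, Btg1 in naive CD8 was 0.0027 and Satb1 in B cells 0.010. Leaving out 1 mouse moved Tcf7 between -0.084 and 0.029, Il7r between -0.0092 and 0.37 and Satb1 between -0.051 and 0.19 in naive CD4, Il7r between -0.062 and 0.11, Satb1 between -0.14 and 0.014 and Btg1 between -0.052 and 0.042 in naive CD8, Satb1 between -0.15 and 0.19 in effector, and Tcf7 between -0.21 and 0.22, Il7r between -0.14 and 0.21 and Satb1 between -0.30 and 0.049 in ILC1-like cells. In B cells it moved Foxo1 between -0.070 and 0.12, Satb1 between -0.15 and 0.049, Bach2 between -0.16 and 0.042 and Cd27 between -0.079 and 0.17.

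Over all genes DESeq2 called 51 higher and 11 lower in effector (edgeR 98 and 26), 15 and 2 in ILC1-like (36 and 5) and 29 and 6 in NK-like cells (48 and 16). Without cells in cycle, edgeR called 94 and 6 in NKT-like (235 and 37), 21 and 4 in effector and 1 and 1 in NK-like cells. The fits with at most 10% mitochondrial UMIs could not be made outside effector and NKT-like cells, nor the stricter gate in naive CD4 cells, for want of mice with 20 cells.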
